A study of Mus musculus with 6 samples.

Results

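The D cyclin, CDK4/6 and Rb axis was examined in KPC cells after knockdown of Brca2. The set holds 10 of the 10616 genes in the count table: the D cyclins Ccnd1, Ccnd2 and Ccnd3, their kinases Cdk4 and Cdk6, the pocket proteins Rb1, Rbl1 and Rbl2, and the inhibitors Cdkn1b and Cdkn2c. It was chosen from these same libraries, because Ccnd1 was lower in shBrca2 than in shControl, and the other 9 genes entered as its pathway partners. The difference in Ccnd1 is therefore given as a description with no test. All 10 genes were found by symbol, and all 10 passed the filter on low means.

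KPC is a mouse pancreatic ductal adenocarcinoma line. Both groups are this one line, infected with lentivirus in the pLKO.1 vector and selected with puromycin: 3 shBrca2 libraries with a hairpin against Brca2 and 3 shControl libraries with a non-targeting hairpin. The cells grew as cultures without stroma, live cells were sorted, and 3′ ends of poly(A) RNA were counted. Whether either population is clonal is not given in the sources used here. The replicate unit is unclear, since a legend of the study counts mice while its labels and methods describe cultured cells, so p-values measure only the spread between these libraries, which may be technical. A hairpin lowers an RNA and does not delete the gene, and the protein was not measured here.

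D cyclins are made when growth signals reach the cell. They bind and activate CDK4 and CDK6, which phosphorylate the pocket proteins RB, p107 and p130 and so release E2F transcription factors to switch on genes of S phase. INK4 proteins such as p18 (Cdkn2c) bind CDK4 and CDK6 directly, whereas p27 (Cdkn1b) binds whole cyclin and kinase complexes. In pancreatic cancer the INK4 arm of this axis is often lost.

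RefSeq promoter entries were found for 7 of the 10 genes, in 9 windows of 250 bases before the start of transcription. Ccnd1, Ccnd2 and Rb1 had no entry and were not scanned. Motifs were searched on both strands: the E2F site (TTTCGCGC, TTTCCCGC, TTTGGCGC or TTTGCCGC), the E-box CACGTG, bound by MYC family factors, the GC box GGGCGG, the CCAAT box CCAAT, and the forkhead site GTAAACA. Of 32851 RefSeq promoter windows of this length, 1.86% held the E2F site, 6.02% the E-box, 32.7% the GC box, 33.8% the CCAAT box and 3.17% the forkhead site. The 3 promoters printed here belong to the inhibitor with the highest fold change of the set and to the kinase with the highest level. The last belongs to Rbl1, the pocket protein gene with an E2F site among those scanned, Rbl1 and Rbl2.

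The Cdkn1b promoter (GRCm38.p6, chr6:134920151-134920400, plus strand) held 2 CCAAT boxes, in capitals, which begin 161 and 35 bases before the start. No E2F or forkhead site with these letters was in the window.
Cdkn1b: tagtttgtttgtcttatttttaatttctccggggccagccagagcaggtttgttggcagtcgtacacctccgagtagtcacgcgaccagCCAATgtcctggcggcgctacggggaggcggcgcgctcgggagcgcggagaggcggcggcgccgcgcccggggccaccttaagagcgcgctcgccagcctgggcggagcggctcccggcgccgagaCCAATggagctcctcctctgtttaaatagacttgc

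The Cdk4 promoter (GRCm38.p6, chr10:127063285-127063534, plus strand) held 4 E-boxes, in capitals. At least 4 E-boxes were found in 7 of the 32851 windows (0.0213%).
Cdk4: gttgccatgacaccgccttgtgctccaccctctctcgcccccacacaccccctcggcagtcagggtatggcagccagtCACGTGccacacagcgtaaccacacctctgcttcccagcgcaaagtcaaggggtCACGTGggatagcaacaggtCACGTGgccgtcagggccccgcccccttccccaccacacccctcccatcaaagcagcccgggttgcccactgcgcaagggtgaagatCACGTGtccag

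The Rbl1 promoter (GRCm38.p6, chr2:157204535-157204784, minus strand) held 1 E2F site, in capitals, beginning 18 bases before the start. It was the only one of the 9 windows with such a site.
Rbl1: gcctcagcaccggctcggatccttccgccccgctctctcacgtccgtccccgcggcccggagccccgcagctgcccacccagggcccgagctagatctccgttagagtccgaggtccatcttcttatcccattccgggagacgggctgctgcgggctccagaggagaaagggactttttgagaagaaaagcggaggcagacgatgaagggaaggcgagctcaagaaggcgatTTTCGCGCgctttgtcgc

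Total counts ranged from 1519340 to 2452467 per library. The target of the hairpin followed the labels, with Brca2 at 5.01 to 6.58 CPM (counts scaled to the library total) in shBrca2 and 15.7 to 21.2 in shControl. Keratins marked the cells as epithelial (Krt18 at 8220 to 10000 normalized counts), whereas Epcam was at 3.78 to 9.09. The 8 epithelial markers summed to 8090 to 8390 CPM in shBrca2 and 8420 to 9200 in shControl, lower in every shBrca2 library. Of these markers, Krt7 (282 to 383 normalized counts in shBrca2, 121 to 161 in shControl) and Sox9 (54.5 to 92.2 and 25.3 to 42.5) were higher in every shBrca2 library and Cldn7 (3.48 to 4.73 and 5.87 to 7.07) was lower in every one. Their part in the results was not tested. Of 8 fibroblast markers 2 were among the 10616 genes counted, with a summed level of 8.56 to 10.9 CPM in shBrca2 and 6.85 to 20 in shControl. Of 6 immune markers 1 was among them, at 5.94 to 9.87 and 5.24 to 8.32 CPM, and of 3 endothelial markers 0 were. The first principal component took 40.9% of the variance and did not fully separate the groups, as shBrca2 replicate 2 (1.16) lay above shControl replicate 1 (-9.1). At its ends, shControl replicate 3 (38.0) lay far from shBrca2 replicates 1 (-21.6) and 3 (-22.0). The part of this spread in the results was not tested, and values without single libraries are given where they bear on a result.

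Among D cyclins, Ccnd1, which encodes cyclin D1, was the one whose level separated the groups. Normalized counts, that is counts divided by the library's size factor, were 794, 999 and 612 in shBrca2 and 1458, 1489 and 1882 in shControl. Every shBrca2 library was below every shControl library. The mean was 802 ± 194 in shBrca2 against 1610 ± 236 in shControl (SD, n = 3), and the log2 fold change, shBrca2 over shControl, was -1.01 ± 0.19 (SE). This contrast chose the set, so nothing is read from it beyond these values. In these bulk libraries, fewer cells that express a gene and less RNA per cell cannot be told apart. The difference was -0.88 on the log2 scale without shControl replicate 3, the library with the highest Ccnd1 level, and -0.84 without shBrca2 replicate 3, the one with the lowest.

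The counts of Ccnd1 (chromosome 7, 144929931 to 144939831, GRCm38.p6) lie where another gene is also annotated. LTO1, which encodes an adaptor for iron-sulfur protein assembly, ends 818 bases inside the Ccnd1 gene on the opposite strand, at the 3′ end that this assay reads, and whether counting used strand is not given in the sources used here. LTO1 had 38 to 68 raw counts per library, against 583 to 1903 for Ccnd1. Its normalized count was 50.5 ± 2.32 in shBrca2 against 46.3 ± 9.29 in shControl (SD, n = 3; adjusted p = 0.978, DESeq2 likelihood ratio test). The other 9 genes also share exon bases with at least 1 gene annotated on the opposite strand. Examples are Bysl for Ccnd3, Tspan31 for Cdk4, Lpar6 for Rb1 and Aktip for Rbl2. Whether these shared bases lie at the 3′ end was not examined, so how far these counts carry the same uncertainty is not known.

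Ccnd2 encodes cyclin D2, which can stand in for cyclin D1 in many tissues. Its normalized counts were 845, 1033 and 754 in shBrca2 and 720, 741 and 764 in shControl. The ranges overlapped, as shBrca2 replicate 3 lay within the control range. The log2 fold change was 0.24 ± 0.16 (SE), with a 95% interval from -0.07 to 0.55 (adjusted p = 0.744, DESeq2 likelihood ratio test). Ccnd3, for cyclin D3, had 469, 355 and 369 normalized counts in shBrca2 and 477, 475 and 390 in shControl. These overlapped as well, with a log2 fold change of -0.17 ± 0.17 (SE), an interval from -0.52 to 0.17 (adjusted p = 0.889, DESeq2). Neither gene passed the test, which does not show that its level was the same in both groups.

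**Figure D1:**
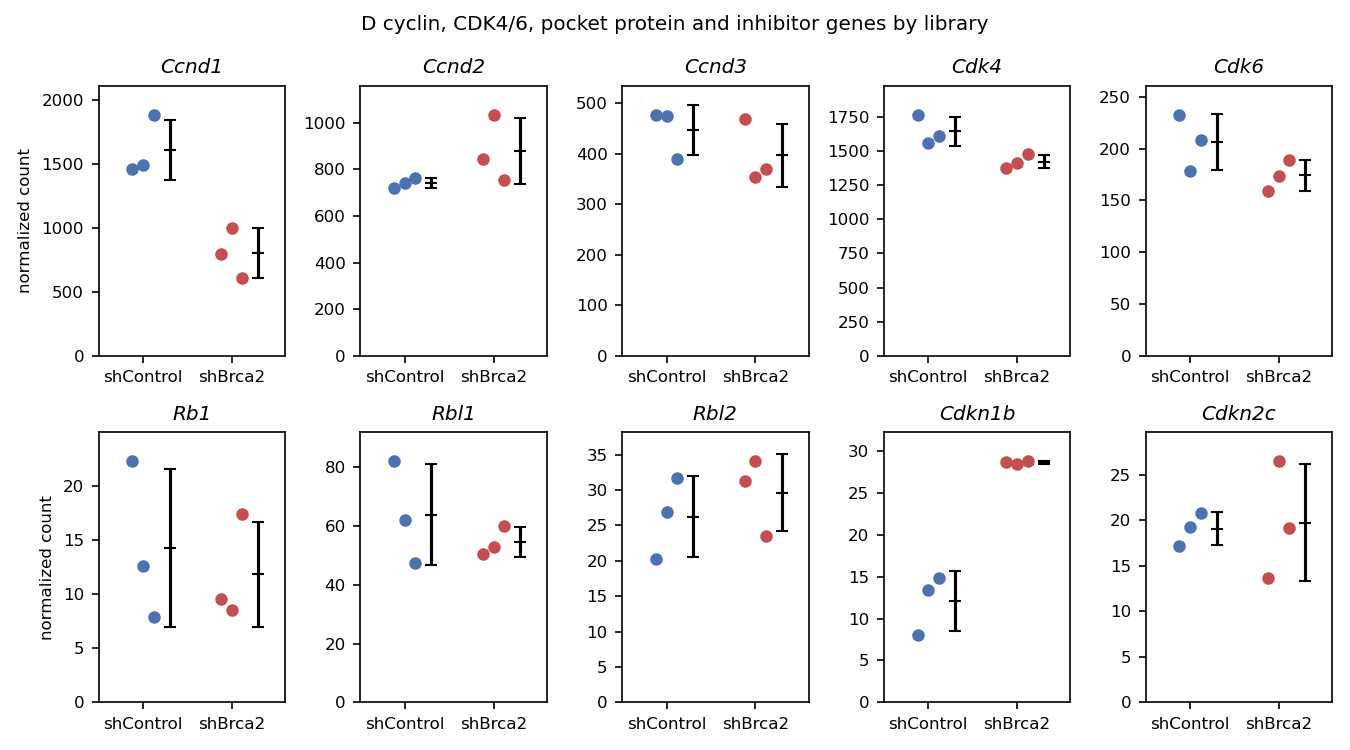
Normalized counts of the 10 genes in each library, shControl in blue and shBrca2 in red, each panel with its own axis from 0, and the mean ± SD of the 3 libraries as a bar beside the points. Ccnd1, Cdk4 and Cdkn1b are the panels in which the groups do not overlap.

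The make-up of the D cyclin pool differed accordingly. A 3′ end count does not grow with transcript length, so the 3 genes were compared as counts within a library. In shBrca2, Ccnd1 took 37.7%, 41.9% and 35.3% of D cyclin counts, and in shControl 54.9%, 55.1% and 62.0%. The groups were apart, and the 95% Wilson intervals, which cover counting error only, were at most 4.82 percentage points wide. The mean share was 38.3 ± 3.34% and 57.3 ± 4.04% (SD, n = 3), a difference of -19.1 percentage points that ranged from -20.9 to -16.7 as each library was left out. It has no test, since Ccnd1 enters it.

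Ccnd1 counts exceeded Ccnd2 counts in 3 of 3 shControl libraries, with ratios of 2.02, 2.01 and 2.46, and were below them in 3 of 3 shBrca2 libraries, with ratios of 0.940, 0.967 and 0.811. Ccnd2 thus had the largest mean share of D cyclin counts in shBrca2, at 42.3 ± 1.91% against 26.6 ± 1.21% in shControl (SD, n = 3). Its own level did not pass the test, and its share depends on Ccnd1, the chosen gene, and has no test. In shBrca2 replicate 1 the Wilson intervals of Ccnd1 and Ccnd2 overlapped (35.3% to 40.1% and 37.7% to 42.5%). They also overlapped in replicate 2 (39.95% to 43.8% and 41.4% to 45.2%), so in both the order lay within counting error. The summed level of Ccnd2 and Ccnd3, which leaves the chosen gene out, was 1275 ± 137 in shBrca2 against 1189 ± 31.3 in shControl (SD, n = 3), with overlapping ranges. All 3 together came to 2076 ± 327 and 2798 ± 207.

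**Figure D2:**
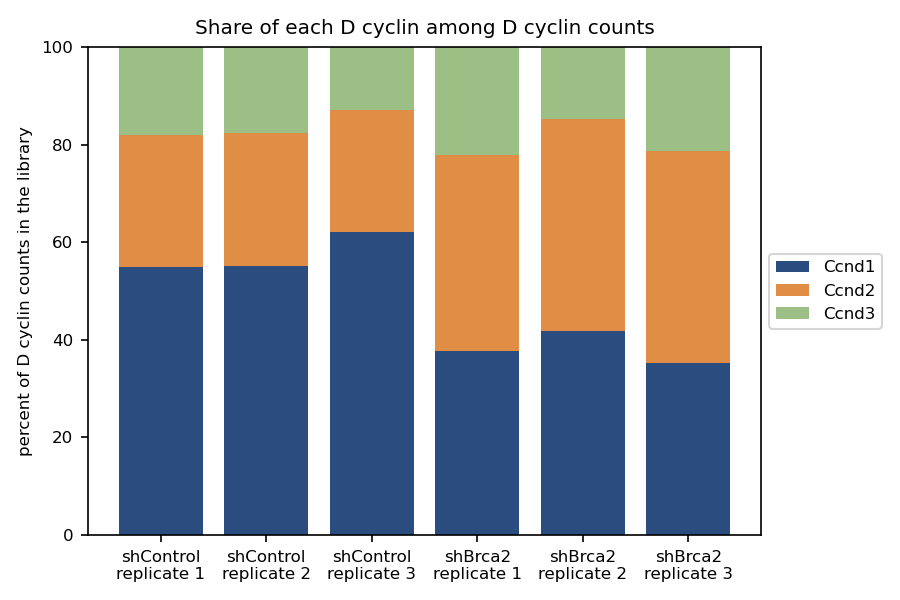
Share of Ccnd1, Ccnd2 and Ccnd3 in the D cyclin counts of each library, in percent, stacked to 100. Ccnd1 is the largest share in every shControl library (54.9% to 62.0%), and Ccnd2 is the largest in every shBrca2 library (40.1% to 43.5%).

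Of the 9 genes other than Ccnd1, 0 were called, where a call needs an adjusted p under 0.1, a mean normalized count over 5 and a log2 fold change beyond 0.5 in size. The edgeR quasi-likelihood test also called 0 of the 9. Among all 9997 genes tested 1.27% were called and 0.5% were called lower. At an unadjusted p under 0.05 the count was 1 of 9, Cdkn1b, against 8.66% of all genes. Normalized counts of 2 of the 9, Cdk4 and Cdkn1b, did not overlap between the groups, against 20.6% of all genes, a share close to the background. The log2 fold change was below 0 in 5 of the 9, with a median of -0.17.

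Cdk4, the kinase partner that D cyclins bind in most epithelia, was the most abundant RNA of the set and ranked 183 in the table by mean level. It had 1377, 1411 and 1475 normalized counts in shBrca2 and 1763, 1556 and 1608 in shControl. All shBrca2 libraries were lower, but the gap between the nearest libraries was small. The log2 fold change was -0.21 ± 0.13 (SE), with an interval from -0.47 to 0.05 (adjusted p = 0.73, DESeq2).

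Cdk6, its close relative, had 159, 174 and 189 normalized counts in shBrca2 and 232, 179 and 209 in shControl, so that shBrca2 replicate 3 lay above the lowest control. The log2 fold change was -0.24 ± 0.20 (SE), with an interval from -0.63 to 0.14 (adjusted p = 0.852, DESeq2). Cdk6 made up 10.9 ± 0.494% of the counts of both kinases in shBrca2 against 11.2 ± 0.738% in shControl (SD, n = 3). The balance of the kinases thus differed by less than the spread between libraries.

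Cdkn1b, which encodes p27, had the highest fold change of the set, in the direction opposite to Ccnd1, and did not pass the test. Its raw counts were 21, 30 and 33 in shBrca2 and 8, 16 and 15 in shControl, or 28.6, 28.4 and 28.7 against 8.08, 13.4 and 14.8 normalized counts. The shBrca2 libraries were nearly equal, and all lay above the controls. The fold change was 2.35, with an interval from 1.25 to 4.42, and the log2 fold change was 1.23 ± 0.47 (SE). The unadjusted p was 0.00788 and the adjusted p 0.283 by the DESeq2 likelihood ratio test, so the difference failed the correction over all genes. It was higher in 3 of 3 libraries, and edgeR gave an adjusted p of 0.108. The SD of 0.183 in shBrca2 was far under the 5.50 that counting alone gives at these counts, so it understates the error of Cdkn1b. Over the alternatives that gave one, the adjusted p ranged from 0.108 to 0.768.

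Set against the kinases of this set, Cdkn1b had 18.6, 17.9 and 17.3 counts per 1000 counts of Cdk4 and Cdk6 in shBrca2 and 4.05, 7.74 and 8.17 in shControl. Cdkn1b stood above Cdkn2c in 3 of 3 shBrca2 libraries and below it in 3 of 3 shControl libraries. These orders rest on few counts. Raw counts of Cdkn1b and Cdkn2c were 21 and 10, 30 and 28, and 33 and 22 in shBrca2. In shControl they were 8 and 17, 16 and 23, and 15 and 21. The order lay within counting error in shBrca2 replicate 2, and counting error was large beside the difference in the other libraries too. Cdkn2c, for the INK4 protein p18, had 13.6, 26.5 and 19.1 normalized counts in shBrca2 and 17.2, 19.3 and 20.8 in shControl. The shBrca2 libraries spread to both sides of the controls, with a log2 fold change of 0.07 ± 0.47 (SE; adjusted p = 0.989, DESeq2).

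The pocket protein genes, whose products hold E2F factors in check, were low. Rb1, the retinoblastoma gene, had 7, 9 and 20 raw counts in shBrca2 and 22, 15 and 8 in shControl, and was the lowest of the set at a mean of 13.0 normalized counts. In normalized counts the shBrca2 range lay within the shControl range. The fold change of Rb1 was 0.842 with an interval from 0.375 to 1.89 (adjusted p = 0.974, DESeq2), a wide interval at these counts, and its log2 fold change turned from -0.25 to 0.21 without shControl replicate 1. Rbl1, for p107, had 50.4, 52.9 and 60.04 normalized counts against 81.8, 62.1 and 47.5. Its log2 fold change was -0.22 ± 0.30 (SE; adjusted p = 0.936, DESeq2). Rbl2, for p130, had 31.3, 34.0 and 23.5 against 20.2, 26.8 and 31.6, with a log2 fold change of 0.17 ± 0.40 (SE; adjusted p = 0.974, DESeq2). In all 3 genes the shControl libraries spread as far as the groups differed or farther.

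**Figure D3:**
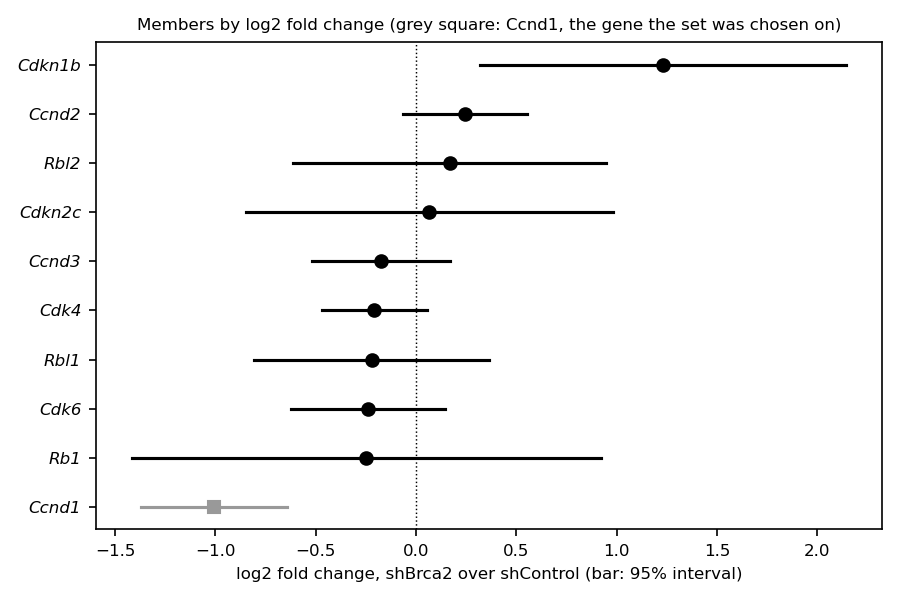
Log2 fold change, shBrca2 over shControl, of the 10 genes with its 95% interval, ordered from the highest to the lowest. The interval of Cdkn1b lies above 0, those of 8 genes cross 0, and Ccnd1 (grey square) is the gene the set was chosen on.

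In order of mean level over the 6 libraries the genes ran Cdk4, Ccnd1, Ccnd2, Ccnd3, Cdk6, Rbl1, Rbl2, Cdkn1b, Cdkn2c and Rb1. Ccnd2 exceeded Ccnd3, Ccnd3 exceeded Cdk6, Cdk6 exceeded Rbl1 and Rbl1 exceeded Rbl2 in 6 of 6 libraries, with no overlap of their ranges. Within a group the order differed: Ccnd1 exceeded Ccnd2 in 3 of 3 shControl and 0 of 3 shBrca2 libraries, and Cdkn1b exceeded Cdkn2c in 0 of 3 and 3 of 3. In shBrca2 replicate 2 both orders lay within counting error. Raw counts there were 1057 for Ccnd1 and 1093 for Ccnd2, and 30 for Cdkn1b and 28 for Cdkn2c. The order of Ccnd1 and Ccnd2 also lay within counting error in shBrca2 replicate 1. That of Cdkn1b and Cdkn2c rests on few counts in every library. Cdk4 and Ccnd1 overlapped, as Ccnd1 was the higher in shControl replicate 3. Rbl2, Cdkn1b, Cdkn2c and Rb1 overlapped with their neighbours in this order.

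Genes on either side of the axis were then counted from lists of pathway members. Among all 9997 genes tested 1.27% were called. A count of 0 is therefore usual for lists this short, here and below, and does not show that their levels were the same. Of 8 other G1 and S phase cyclins and kinases tested, 0 were called, with a median log2 fold change of -0.07 that ranged from -0.12 to 0.04 without single libraries, so its sign was not stable. Cks1b, a CDK subunit, was at 918 ± 246 normalized counts in shBrca2 against 1065 ± 198 in shControl (SD, n = 3). Ccna2, for cyclin A2, was at 296 ± 29.3 and 340 ± 61.6. Of 4 other CDK inhibitors 0 were called. Cdkn2a, for p16 and p19, was at 657 ± 84.4 and 643 ± 107, and its neighbour Cdkn2b, for p15, at 430 ± 31.2 and 418 ± 71.0 (SD, n = 3). RNA of both genes was thus found in this line. A count by gene symbol does not tell transcripts for p16 and p19 apart, so expression of p16 is not shown. Of 9 genes that assemble or degrade cyclin D and p27, 0 were called, among them Ddb1 (log2 fold change -0.12) and Hsp90ab1 (-0.16).

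E2F and DP factors gave 0 calls among 10 genes and a median of -0.22, which was -0.12 without shControl replicate 1. E2f4, a repressive E2F that works with the pocket proteins, had a log2 fold change of -0.21, and Tfdp1, the common DP partner, one of 0.16. Of 6 genes of the MuvB core and DREAM complex 0 were called, with Lin9 at 0.23 and Lin54 at 0.33. E2F target genes, which encode the replication machinery, had a log2 fold change below 0 in 19 of 24, where 50.2% of all genes tested were below 0. Their median was -0.20, against -0.00094 for all genes, and 0 of the 24 were called. Mcm7, a helicase subunit, was at 551 ± 69.4 normalized counts in shBrca2 against 667 ± 99.2 in shControl, while Pcna, the sliding clamp, was at 698 ± 70.1 and 608 ± 43.1 (SD, n = 3). The smallest adjusted p of the list was 0.542 (DESeq2), so no single E2F target passed. An unadjusted p under 0.05 was met by 1 of the 24, against 8.66% of all genes (DESeq2). Normalized counts of 3 of the 24 did not overlap between the groups, against 20.6% of all genes. The 24 genes share their libraries, so their signs are not 24 separate observations, and the sign count was not tested. The median ranged from -0.21 to -0.18 when libraries were left out.

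Genes on the input side were also examined, since Ccnd1 is known to respond to ERK, AP-1 and Wnt signals. With 1.27% of all genes called, counts of 0 say little about these short lists too. Of 15 ERK output genes 0 were called, with 8 above and 7 below 0 and a median of 0.01, which ranged from -0.09 to 0.11 without single libraries. An unadjusted p under 0.05 was met by 3 of the 15, against 8.66% of all genes: the feedback inhibitors Dusp6 (log2 fold change 0.44, adjusted p = 0.194) and Spry4 (0.85, adjusted p = 0.191), and Ier3 (DESeq2). Ier3, an early response gene, had a log2 fold change of -0.37 ± 0.14 (SE; adjusted p = 0.277, DESeq2) and Phlda1 one of -0.12. Of 6 AP-1 subunits tested 0 were called, and 5 were below 0, where 50.2% of all genes tested were below 0. These genes share their libraries, and the sign count was not tested. Junb was at -0.26 and Jund at -0.23. Fosl1, also an AP-1 subunit, was counted in the ERK list, at -0.10 (adjusted p = 0.943, DESeq2). The lowest was Jun, at -0.75 (adjusted p = 0.391, DESeq2). Of 5 Wnt targets tested 0 were called, with Myc at -0.18 and Cd44 at 0.20.

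**Figure D4:**
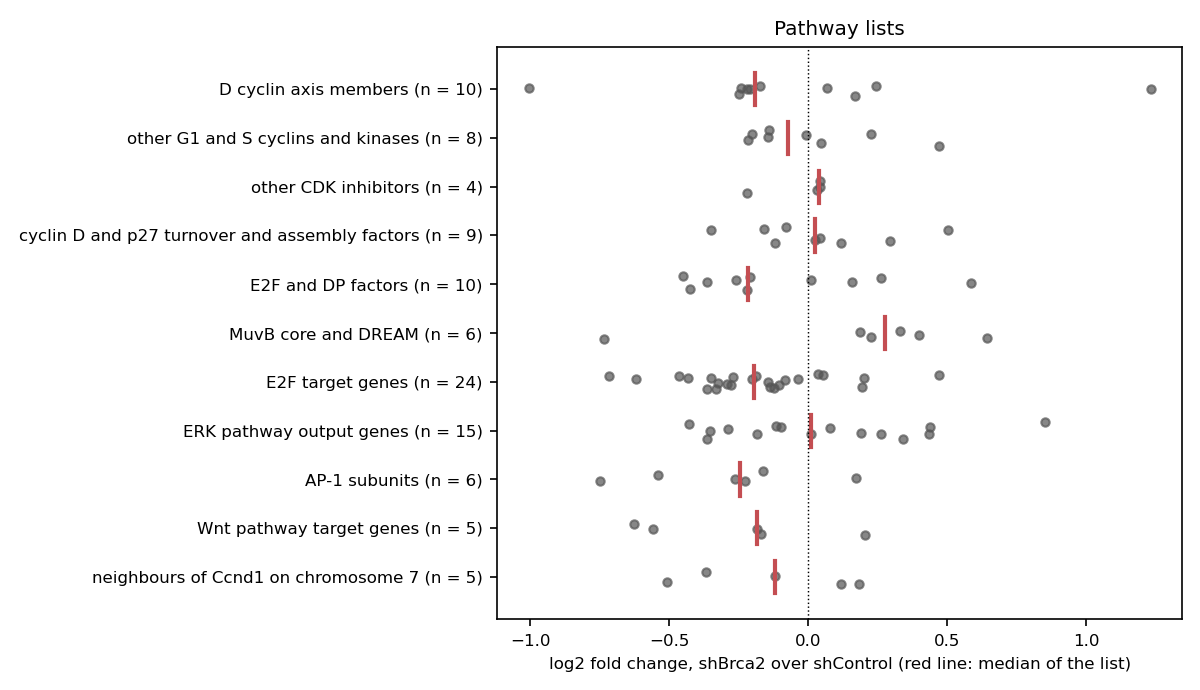
Log2 fold change, shBrca2 over shControl, of each gene tested in 11 lists, with the median of the list in red. The E2F target genes lie mostly to the left of 0 (19 of 24, median -0.20), while the ERK output genes lie on both sides (median 0.01).

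Of the genes beside Ccnd1 on chromosome 7, 6 of 10 were among the 10616 genes counted and 5 were tested. Of these 1 was called lower, against 0.5% of all genes. Ano1, a calcium-activated chloride channel gene 177.9 kb from Ccnd1, had 436, 483 and 394 normalized counts in shBrca2 and 612, 631 and 623 in shControl. The groups did not overlap, and the log2 fold change was -0.51 ± 0.15 (SE; adjusted p = 0.081, DESeq2). The call was lost at the stricter adjusted p of 0.05, in edgeR (adjusted p = 0.114), with 1 surrogate variable (0.152) and in 5 of the 6 fits that left out a library, with adjusted p-values from 0.0386 to 0.384 over these 6. Cttn, 458.4 kb away, had a log2 fold change of -0.12, and LTO1, which overlaps Ccnd1, one of 0.12.

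The 5 genes whose pattern was most like that of Ccnd1 over the 6 libraries, by Pearson's r of log2(normalized count + 1) among 5680 genes with a mean of at least 50, were Kat5 (0.997), Gpc1 (0.996), Slc39a7 (0.994), Nubp2 (0.991) and Slc9a5 (0.991). All points share their libraries and the difference between the groups, so these values are a description. The 5 genes were picked for following Ccnd1, the gene that chose the set. A lower level in shBrca2 therefore follows from the choice, and no test of it is given. Gpc1, a cell surface proteoglycan gene, had 68.6 ± 10.6 normalized counts in shBrca2 against 115 ± 10.3 in shControl (SD, n = 3). Slc9a5, a sodium and proton exchanger gene, had 38.6 ± 9.32 against 79.2 ± 4.65 (SD, n = 3).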

How the data were processed

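The deposited table holds the authors' raw counts by gene symbol, with a column for each library, neither normalized nor pooled. The assay was a variant of MARS-seq. The submitters' processing notes name bcl2fastq, cutadapt, STAR 2.4.2a, HTSeq and DESeq2 and the build mm10, with no role or order. Annotation, strand setting and use of molecular identifiers are not given in the sources used here, so a count is not known to be 1 molecule.

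Groups came from the source name, columns from the titles, and replicate numbers only name libraries. DESeq2 1.42.0 in R 4.3.3 gave size factors by median of ratios and a likelihood ratio test of group, as in the study's methods, with Benjamini-Hochberg adjustment over 9997 genes. The other 619 genes had no adjusted p, with independent filtering at a mean of 4.64. Intervals are ± 1.96 SE. Differences of shares, ratios and lists were not tested. Alternatives were edgeR 4.0.16, the Wald test, TMM factors, total counts, other low-count filters, an adjusted p under 0.05, 1 surrogate variable from sva 3.50.0 and leaving out each library. The fits were tested on simulated data. Totals of 1519340 to 2452467 counts set the precision, and intervals of shares cover counting error only.

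The members and lists were chosen with earlier results of these data known. Named were the members, the called genes and 2 most abundant genes of each list, and the 5 genes most like Ccnd1. Genes named beyond this rule were chosen after their values were seen. Positions and promoters came from RefSeq on GRCm38.p6, and overlapping genes from GENCODE on GRCm39.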

Additional observations from a re-analysis of the deposited data

How the results depend on the processing

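The count of members called other than Ccnd1 was 0 under every alternative run, with 6 libraries and with each left out. The count of called genes among all genes was 127 and ranged from 47 to 140 when libraries were left out. The lowest counts were 47 with shBrca2 replicate 3 dropped, 55 with shControl replicate 2 dropped and 81 with shBrca2 replicate 1 dropped, and each of these fits has fewer libraries. The log2 fold change of Ccnd1 ranged from -1.20 to -0.84 when libraries were left out and from -1.01 to -0.86 under the other alternatives, the smallest with 1 surrogate variable. That of Cdkn1b ranged from 1.02 to 1.39 and from 1.23 to 1.45. DESeq2 gave Cdkn1b no adjusted p with TMM factors, total counts, the filter of 10 counts in 3 libraries, or without shBrca2 replicate 2. Of 140 comparisons of a member with an alternative, 137 kept direction and call and 3 turned direction. All 3 were in fits without a library: Rb1 ranged from -0.66 to 0.21 and Cdkn2c from -0.20 to 0.25. The Wald test, no independent filter and the adjusted p under 0.05 keep the log2 fold changes of the main fit, so direction could not turn there. Where Rb1, Rbl2, Cdkn1b or Cdkn2c had no adjusted p, no call was possible. The tally therefore overstates how far the alternatives probe the results. Other genes that turned were Cdkn2b, at -0.023 with 1 surrogate variable and from -0.071 to 0.17 without a library, Cdkn2a (-0.094 to 0.14), Hsp90ab1 (-0.43 to 0.0021), Phlda1 (-0.24 to 0.11) and Cttn (-0.26 to 0.0028). The median of the 10 members was -0.19 and ranged from -0.23 to -0.0064 without a library. No scaling moved the median of all genes by over 0.1. With means of 13.0 to 27.9 normalized counts, depth limits Rb1, Cdkn2c, Cdkn1b and Rbl2. No paired analysis was possible because no replicate number in the labels is common to both groups.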
